A study of Mus musculus with 15 samples.

Results

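The antioxidant enzymes described here are 10 genes out of 56832 genes with deposited counts. The choice was made by name, for what their proteins do, and with earlier results of these data known. They are the superoxide dismutases Sod1, Sod2 and Sod3, catalase (Cat), the glutathione peroxidases Gpx1, Gpx3 and Gpx4, the peroxiredoxin Prdx1, and the NRF2-driven genes Nqo1 and Hmox1. All 10 passed the filter on low counts that left 17204 genes for testing, and the smallest count of any of them in any library was 91 (Nqo1). RNA came from bone marrow mesenchymal stromal cells (MSCs) of 16 week old TauT+/+ mice (WT) and TauT-/- mice (KO), which lack the taurine transporter encoded by Slc6a6 and are of C57BL/6J background. Long bone marrow cells were grown at 2% O2, sorted with magnets for CD45 negative cells according to the series description (the methods of the study deplete Ter119 and CD31 as well, and name flow sorting as the other route), and sequenced in 15 libraries, labelled as 4 WT and 4 KO male samples and 3 WT and 4 KO female samples. The transporter is missing from every cell of the animal, so the MSCs came from marrow that had developed without it, and nothing in the labels says whether each library is a separate animal or culture. The p-values therefore measure the spread between these libraries. They, like each SD and SE, take all 15 as separate, although some pairs described below were nearly identical. If such a pair came from 1 sample, the spread would be understated, and this was not tested. With 1 library of each pair kept, 2 or 7 genes in all passed by edgeR (female-labelled or male-labelled kept), rather than 223.

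Superoxide dismutases turn superoxide into hydrogen peroxide, and catalase, the glutathione peroxidases and the peroxiredoxins then reduce that peroxide, the peroxidases at the expense of glutathione and the peroxiredoxins at the expense of thioredoxin. NRF2 (Nfe2l2) is held down by KEAP1 and, when released under oxidative stress, binds antioxidant response elements (AREs) in genes such as Nqo1, Hmox1 and Prdx1, while BACH1 represses Hmox1 from the same elements. In marrow stroma, the balance of these enzymes is known for its bearing on self-renewal and on the choice between bone and fat.

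The promoters show how far the members share the ARE letters. RefSeq promoter windows on the mouse build GRCm38.p6, from 250 bases before to 50 bases after the gene start, were found for 8 of the 10 genes, all but Sod3 and Hmox1. These 8 genes have 11 windows. The ARE core TGACNNNGC, sought on both strands, was present in 2 of the 11 (Prdx1 and Sod1) and in 12.4% of all 32851 windows. The AP-1 motif TGANTCA, which can overlap the ARE core, was present in 1 of the 11 (Prdx1) and in 7.81% of all windows. In Prdx1 the ARE core starts 133 bases upstream and an AP-1 motif starts inside it, with another 237 bases upstream, and in Sod1 the core starts 56 bases upstream. The windows of both genes are printed below with the ARE core in capitals, followed by those of Gpx1 and Nqo1, which differed between the genotypes at an unadjusted p under 0.05 and hold neither motif. A match describes letters only, and the absence of one says nothing about the bases outside the window.
Prdx1, chr4:116685349-116685648, plus strand: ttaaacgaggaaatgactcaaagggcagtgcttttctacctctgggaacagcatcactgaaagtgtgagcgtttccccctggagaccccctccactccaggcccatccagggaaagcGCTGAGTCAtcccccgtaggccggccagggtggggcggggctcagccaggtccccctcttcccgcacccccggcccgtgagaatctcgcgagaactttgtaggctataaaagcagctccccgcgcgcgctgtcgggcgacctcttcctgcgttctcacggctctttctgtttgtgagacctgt
Sod1, chr16:90220512-90220811, plus strand: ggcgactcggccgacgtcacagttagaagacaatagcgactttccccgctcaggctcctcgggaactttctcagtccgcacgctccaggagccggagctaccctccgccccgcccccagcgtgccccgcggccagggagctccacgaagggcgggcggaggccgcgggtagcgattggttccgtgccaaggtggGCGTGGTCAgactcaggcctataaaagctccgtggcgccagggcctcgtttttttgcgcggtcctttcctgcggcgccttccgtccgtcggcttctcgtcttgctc
Gpx1, chr9:108338830-108339129, plus strand: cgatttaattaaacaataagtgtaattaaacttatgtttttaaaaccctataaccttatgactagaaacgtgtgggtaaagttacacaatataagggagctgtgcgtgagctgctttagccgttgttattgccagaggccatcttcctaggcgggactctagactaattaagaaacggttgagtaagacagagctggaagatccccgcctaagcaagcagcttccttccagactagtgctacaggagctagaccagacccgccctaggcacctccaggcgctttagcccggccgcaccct
Nqo1, chr8:107403156-107403455, minus strand: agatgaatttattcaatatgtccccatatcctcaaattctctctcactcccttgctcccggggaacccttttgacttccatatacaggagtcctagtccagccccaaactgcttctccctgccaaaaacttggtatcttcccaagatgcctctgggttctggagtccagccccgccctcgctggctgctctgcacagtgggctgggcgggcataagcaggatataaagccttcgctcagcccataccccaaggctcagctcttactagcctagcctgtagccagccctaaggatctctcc

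Before the values of the members, some properties of the libraries bear on all of them. Male-labelled libraries held 69764291 to 101575071 counts and female-labelled ones 12761107 to 20781070, so sex label and depth cannot be told apart, while both genotypes occur at each depth. Slc6a6, the targeted gene, had 1571 ± 712 CPM (counts normalized by TMM to library size, SD, n = 7) in WT and 806 ± 399 CPM (SD, n = 8) in KO libraries, a difference of −0.97 on the log2 scale (edgeR adjusted p = 0.125), with all 8 KO libraries below the WT median and none at 0. In 3 libraries (WT male 1, KO male 1 and WT female 3) sex-linked genes went against the sex label, and KO male 1 with KO female 1, and WT male 1 with WT female 1, were closer to each other (spread of log2 ratios 0.116 and 0.128) than any other pair (0.289 or more). All 14 stromal markers passed the filter, yet so did all 24 macrophage markers, whose summed level was 1622 to 13170 CPM in WT and 8474 to 27100 CPM in KO libraries. Of these 24 genes, 22 had a log2 fold change above 0 and 2 passed as higher in KO, with a median of 0.91, while 12 of the 14 stromal genes were below 0, none passed, and the median was −0.57. Of all 17204 genes tested, 8316 lay above and 8888 below 0, and 0.546% passed as higher and 0.75% as lower (edgeR). The library KO female 4 stood apart, with the highest macrophage sum (27100 CPM), the lowest stromal sum (4314 CPM) and 0.841% of its counts on the 10 members, against 0.199% to 0.449% in the other libraries. Where a named gene has its highest or lowest value in this library, its fold change without it is given where that moved by over 1.5 times. As in any bulk sample, fewer cells of a type and less RNA per cell cannot be told apart.

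None of the antioxidant enzymes passed the test of KO against WT MSCs. By the quasi-likelihood test of edgeR, with terms for sex label and genotype and Benjamini-Hochberg adjustment over all genes, 0 of the 10 members had an adjusted p under 0.05, where 1.3% of all genes did. At an unadjusted p under 0.05 there were 3 of 10, Gpx1 and Prdx1 with more and Nqo1 with less in KO MSCs, against 23.6% of all genes. DESeq2 called 1 member, Gpx1 (log2 fold change 0.58, adjusted p = 0.0466), where it called 11.9% of the same genes, and voom called 0 members and 7.67% of genes. No member separated the genotypes without overlap, as 1.13% of genes did. The median log2 fold change of the members was −0.08, with 4 above and 6 below 0, beside −0.02 over all genes tested.

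**Figure D1:**
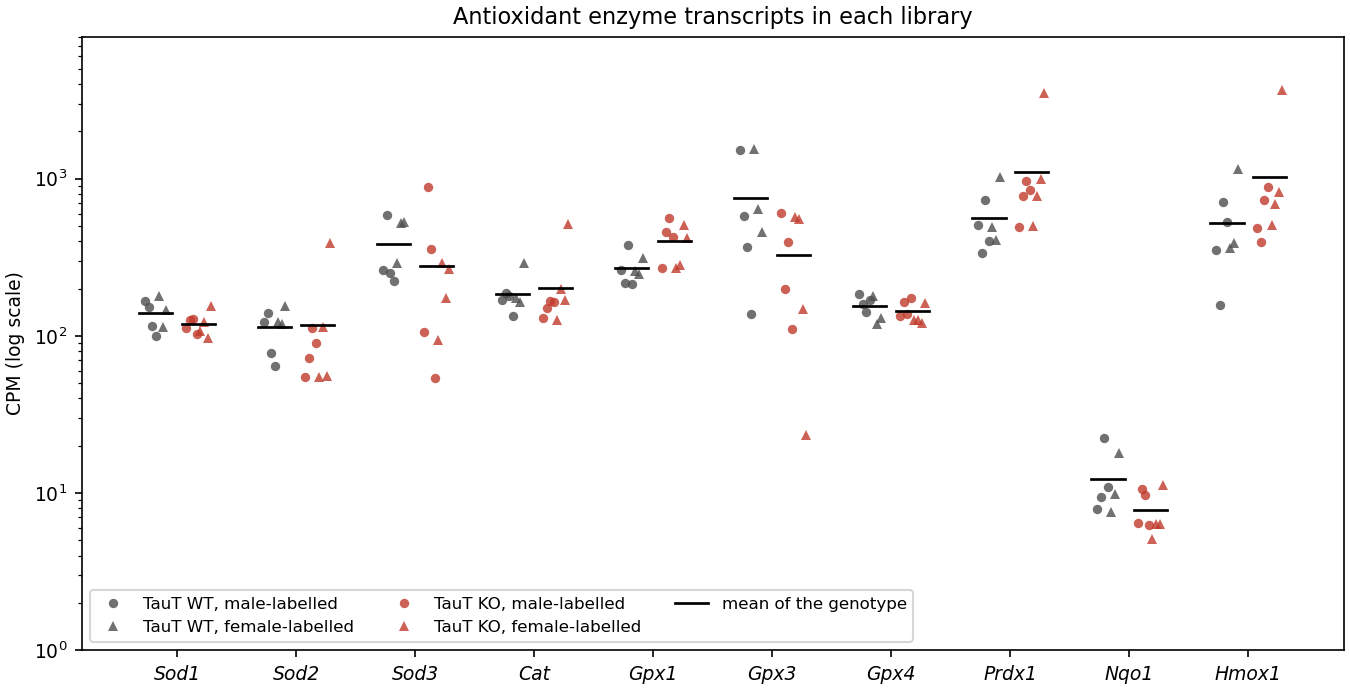
CPM of each antioxidant enzyme (log axis) in each of the 15 libraries, TauT WT in grey and TauT KO in red, circles for male-labelled and triangles for female-labelled libraries, with a line at the mean of each genotype. The genotypes overlap for all 10 genes, and 1 KO library (KO female 4) lies far above the rest for Prdx1 (3520 CPM) and Hmox1 (3645 CPM) and far below for Gpx3 (23.6 CPM).

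The superoxide dismutases did not pass the test. Sod1, the copper and zinc enzyme of the cytosol, had 139 ± 30.1 CPM (SD, n = 7) in WT and 119 ± 18.7 CPM (SD, n = 8) in KO MSCs, a log2 fold change of −0.23 with a 95% interval of −0.54 to 0.07 (edgeR adjusted p = 0.343). The 15 libraries spanned 96.9 to 178 CPM, and 7 of the 8 KO libraries lay below the WT median of 146 CPM, though only KO female 3 lay below the lowest WT library. Without WT female 1, the highest library, the log2 fold change of Sod1 was −0.14, and without WT male 4 it was −0.29, the ends of the range on leaving out each library. Sod2, the manganese enzyme of mitochondria, had 115 ± 32.4 CPM in WT and 118 ± 113 CPM in KO MSCs (log2 fold change −0.06 ± 0.38 SE, edgeR adjusted p = 0.942). KO female 4 alone had 391 CPM, more than any other library, while 3 KO libraries (KO male 1, KO female 1 and KO female 3, at 54.5, 54.6 and 55.8 CPM) lay below the lowest WT library at 64.2 CPM. Without KO female 4 the log2 fold change of Sod2 was −0.52 (edgeR adjusted p = 0.210).

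Sod3, the secreted dismutase of the extracellular matrix, varied most among the 3 dismutases, 16.5-fold from the lowest to the highest library. WT libraries ranged from 224 to 588 CPM with a median of 292 CPM, and KO libraries ranged from 53.6 CPM in KO male 4 to 883 CPM in KO male 2 with a median of 222 CPM. Of the 8 KO libraries 4 lay below every WT library and 1 above. The log2 fold change was −0.48 (95% interval −1.57 to 0.60, edgeR adjusted p = 0.589), and without KO male 2 it was −1.03 (edgeR adjusted p = 0.144), while without KO female 1 or KO male 4 it was −0.30 or −0.32.

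Catalase, which breaks down hydrogen peroxide in peroxisomes, had 185 ± 49.5 CPM (SD, n = 7) in WT and 203 ± 127 CPM (SD, n = 8) in KO MSCs. The log2 fold change was 0.05 (95% interval −0.50 to 0.60, edgeR adjusted p = 0.926). KO female 4 had the highest value at 513 CPM and WT female 3 the next at 291 CPM, while the other 13 libraries lay between 127 and 198 CPM, with the genotypes intermingled. Without KO female 4 the log2 fold change of Cat was −0.22 (edgeR adjusted p = 0.393).

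Gpx1, the glutathione peroxidase of cytosol and mitochondria, came closest to the threshold. It had 261, 217, 377 and 214 CPM in WT male libraries 1 to 4 and 259, 247 and 313 CPM in WT female libraries 1 to 3. KO male libraries 1 to 4 had 271, 457, 564 and 427 CPM, and KO female libraries 1 to 4 had 269.5, 282, 505 and 421 CPM. All 8 KO libraries lay above the WT median and 5 of them above every WT library, whereas KO male 1, KO female 1 and KO female 2 fell within the WT range. The level was 1.48-fold higher in KO, which is 0.57 ± 0.19 (SE) on the log2 scale with a 95% interval of 0.16 to 0.98 (edgeR adjusted p = 0.106). The 2 lowest KO libraries are the pair that were nearly identical to each other. Leaving out each library in turn gave 0.48 to 0.68.

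Gpx4, which reduces lipid peroxides in membranes and so holds back ferroptosis, was the steadiest member. It had 155 ± 24.9 CPM (SD, n = 7) in WT and 143 ± 20.5 CPM (SD, n = 8) in KO MSCs, every KO library lay within the WT range of 119 to 185 CPM, and the 95% interval of the log2 fold change ran from −0.34 to 0.14 (value −0.10, edgeR adjusted p = 0.625). Its biological coefficient of variation was 0.191, beside a median of 0.345 over all genes tested.

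Gpx3, the secreted glutathione peroxidase of plasma, was the most variable member, with a biological coefficient of variation of 0.791 and a 65.2-fold range between libraries. It had 1531, 579, 368 and 138 CPM in WT male libraries 1 to 4 and 1536, 643 and 458 CPM in WT female libraries 1 to 3. KO male libraries 1 to 4 had 607, 199, 398 and 111 CPM, and KO female libraries 1 to 4 had 567, 553, 147 and 23.6 CPM. The 2 highest values belong to WT male 1 and WT female 1, the other nearly identical pair, and only KO male 4 and KO female 4 lay below the lowest WT library. On the log2 scale the difference was −1.20 ± 0.62 (SE, edgeR adjusted p = 0.257), and it was −0.81 without WT male 1 and −1.02 without KO female 4. Leaving out each library in turn gave Gpx3 −1.44 (without KO male 1) to −0.81.

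Prdx1, the cytosolic peroxiredoxin that hands electrons from thioredoxin to peroxide, had the largest positive log2 fold change of the 10. It had 505, 336, 735 and 403 CPM in WT male libraries 1 to 4 and 496, 410.1 and 1031 CPM in WT female libraries 1 to 3. KO male libraries 1 to 4 had 495, 774, 964 and 852 CPM, and KO female libraries 1 to 4 had 496, 773, 998 and 3520 CPM. Only KO female 4 exceeded the highest WT library (WT female 3), and 7 of 8 KO libraries lay above the WT median. This is a log2 difference of 0.88 ± 0.39 (SE, edgeR adjusted p = 0.189), and without KO female 4 it was 0.46 (edgeR adjusted p = 0.301). Without WT female 3 it was 1.07.

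Hmox1, which cuts heme into biliverdin, iron and carbon monoxide, was highest and lowest in the same libraries as Prdx1. It had 351, 157, 710 and 526 CPM in WT male libraries 1 to 4 and 362, 391 and 1146 CPM in WT female libraries 1 to 3. KO male libraries 1 to 4 had 483, 398, 728 and 882 CPM, and KO female libraries 1 to 4 had 509, 688, 827 and 3645 CPM. All 8 KO libraries lay above the WT median of 391 CPM, but only KO female 4 lay above the highest WT library, which was again WT female 3. KO and WT MSCs differed by 0.81 ± 0.47 (SE) on the log2 scale (edgeR adjusted p = 0.312), and the difference was 0.33 without KO female 4 (edgeR adjusted p = 0.595) and 1.08 without WT female 3.

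Nqo1, the quinone reductase that is a standard readout of NRF2 activity, had lower values in KO than in WT MSCs, unlike Hmox1 and Prdx1. It had 7.94, 9.36, 22.3 and 10.9 CPM in WT male libraries 1 to 4 and 7.53, 9.79 and 17.9 CPM in WT female libraries 1 to 3. KO male libraries 1 to 4 had 6.42, 10.7, 9.65 and 6.29 CPM, and KO female libraries 1 to 4 had 5.08, 6.33, 6.32 and 11.3 CPM. Of the 8 KO libraries 5 lay below every WT library, and none reached the levels of WT male 3 and WT female 3, the highest in WT. KO minus WT was −0.65 ± 0.27 (SE) on the log2 scale (edgeR adjusted p = 0.160), and it was −0.44 without WT female 3 and −0.77 without KO female 4.

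**Figure D2:**
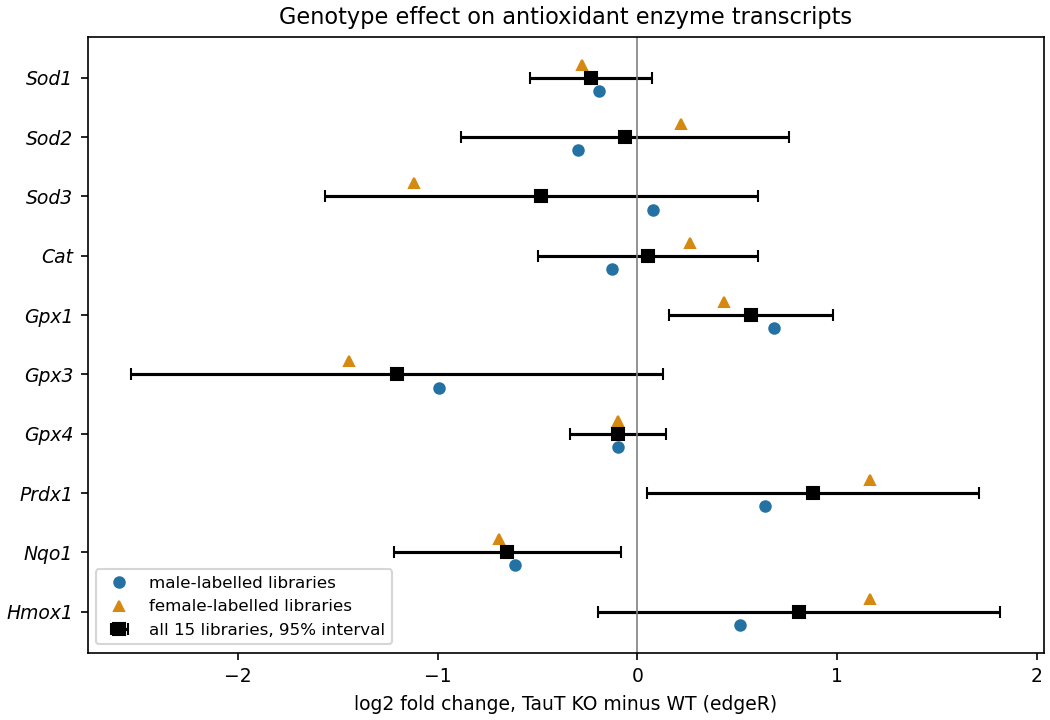
Log2 fold change of TauT KO against WT for each antioxidant enzyme, with black squares and 95% intervals for all 15 libraries and coloured points for male-labelled and female-labelled libraries alone. The intervals of Gpx1 (0.16 to 0.98), Prdx1 (0.05 to 1.71) and Nqo1 (−1.22 to −0.08) lie to 1 side of 0 before adjustment for the number of genes, and none of the 10 passed after it.

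Taken library by library, the members did not move together. Against the WT median of each gene, KO female 4 had 8 of 10 members above and WT female 3 had 7 above, while KO male 1, KO female 1, KO female 3 and WT male 4 each had 7 of 10 below. Prdx1 and Hmox1 peaked in the same 2 libraries, KO female 4 and WT female 3, and were both lowest in WT male 2. Gpx3 was lowest where Prdx1 was highest, in KO female 4. Without KO female 4, KO female 1 and WT female 1 together, a choice made after the data were seen, 0 of 10 members passed and 2 genes in all did (edgeR).

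**Figure D3:**
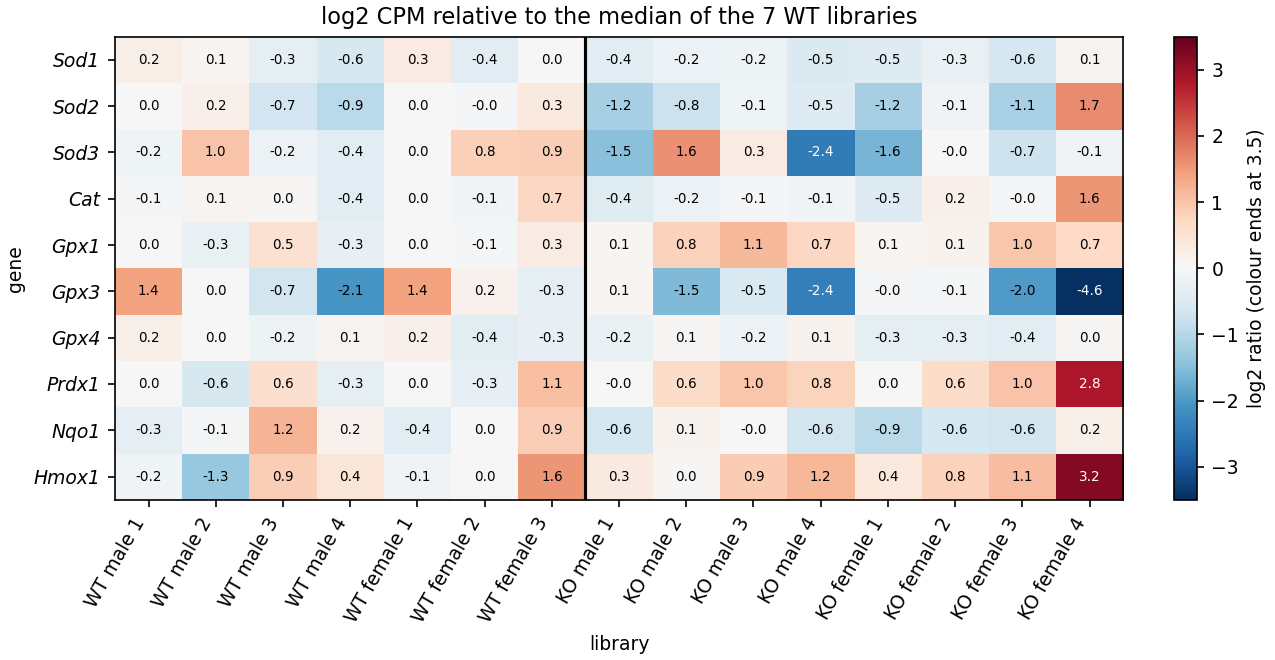
Log2 ratio of the CPM of each enzyme (rows) in each library (columns) to the median of the 7 WT libraries, WT left and KO right of the line. KO female 4 is the most extreme column, and the columns of KO male 1 and KO female 1, and of WT male 1 and WT female 1, look alike.

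The macrophage markers were compared with Prdx1, Hmox1 and Gpx1 library by library. WT male 2 had the lowest macrophage sum (1622 CPM) and the lowest Prdx1 and Hmox1, and KO female 4 the highest sum and the highest of both. Within WT, WT female 3 and WT male 3 had the highest macrophage sums (13170 and 10840 CPM) and the highest Prdx1, Hmox1, Gpx1 and Nqo1. Other libraries departed from this. KO female 2 had the second highest sum (25279 CPM) with 282 CPM of Gpx1, inside the WT range, and with less Prdx1 and Hmox1 (773 and 688 CPM) than KO female 3 and KO male 4, whose sums were 19067 and 20698 CPM. Gpx1 was about equally low in WT male 4 and WT male 2 (214 and 217 CPM), with macrophage sums of 6313 and 1622 CPM. With the mean log2 level of the 24 macrophage genes in the model, the log2 fold change of Hmox1 was 0.0047, that of Prdx1 0.26, that of Gpx1 0.29 and that of Nqo1 −0.95, with edgeR adjusted p of 0.998, 0.822, 0.569 and 0.234. The same model left 2 genes of the whole table past the threshold. The part of macrophage RNA in these values was not tested. Marker sums of red cells were at most 4.33 CPM, with 2 of 9 genes tested and 2 of 9 at 0 in every library, and those of endothelial cells were 7.96 to 19.0 CPM in WT and 11.4 to 107 CPM in KO, the highest in KO female 4.

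**Figure D4:**
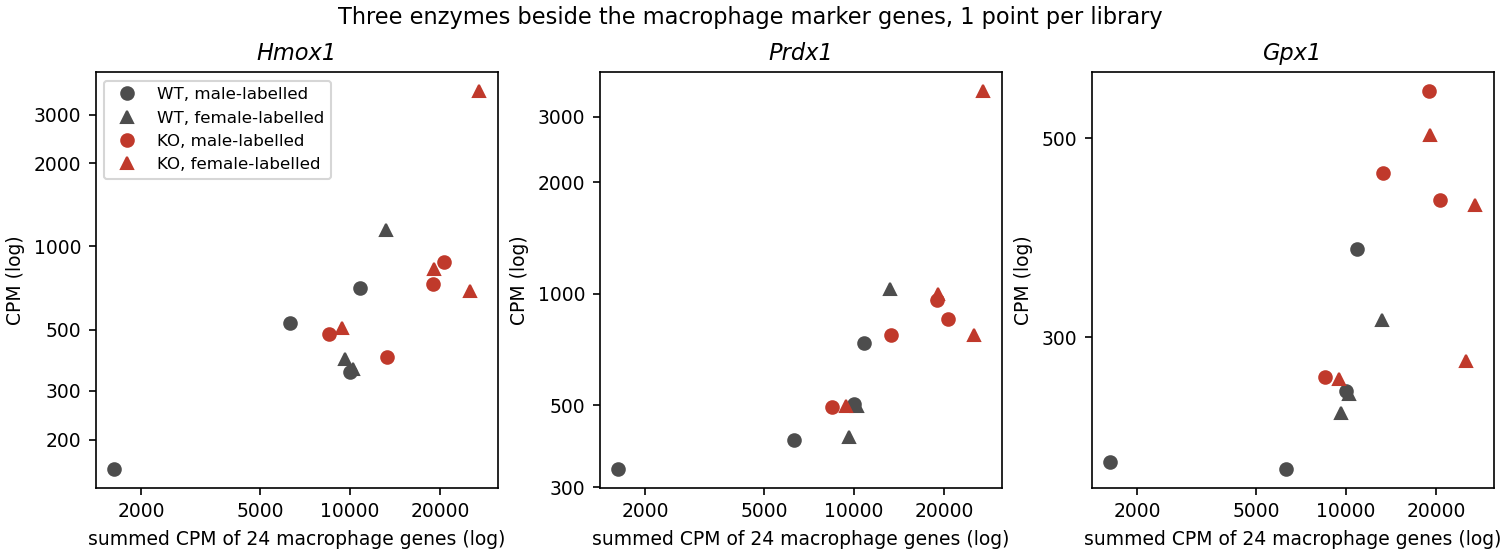
CPM of Hmox1, Prdx1 and Gpx1 (log axes) against the summed CPM of 24 macrophage marker genes (log axis), 1 point per library, WT grey and KO red. The WT sums run from 1622 to 13170 CPM and the KO sums from 8474 to 27100 CPM, and the library at the far right and top of the Hmox1 and Prdx1 panels is KO female 4.

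Within a sex label the comparison gave no call either. The 2 labels are not cleanly separate groups, since each near-identical pair joins a male-labelled and a female-labelled library, and sex-linked genes went against the label in 3 libraries. In a fit with 1 term per group, 0 of 10 members passed in male-labelled libraries, where 0% of genes did, and 0 of 10 in female-labelled libraries, also 0% of genes, by edgeR and by DESeq2 alike for the members. At an unadjusted p under 0.05 there was 1 member in male-labelled libraries (Gpx1, beside 8.62% of genes) and 0 in female-labelled ones (beside 14.6%). For Gpx1 the log2 fold change was 0.69 ± 0.27 (SE) among male-labelled and 0.44 ± 0.29 (SE) among female-labelled libraries. Prdx1 had 0.64 and 1.16, Hmox1 0.51 and 1.16, Nqo1 −0.61 and −0.69, and Gpx3 −0.99 and −1.45 in the same order. The values of Sod2, Sod3 and Cat had opposite signs under the 2 labels, the widest gap being that of Sod3 (0.08 and −1.12). The difference between the labels itself passed for 0 of 10 members by edgeR and by DESeq2, and for 0 members at an unadjusted p under 0.05 (0% and 1.41% of genes by edgeR). The smallest unadjusted p of a member was 0.249 (Sod3).

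Between the sex labels, over both genotypes, 0 of 10 members passed (0.0233% of genes, edgeR), none had an unadjusted p under 0.05 (5.45% of genes), and DESeq2 called 0. Cat was nearest, with a log2 difference of −0.54 for male-labelled minus female-labelled libraries (edgeR adjusted p = 0.880).

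Relative to transcript length, Hmox1, Gpx3, Gpx1 and Prdx1 stood highest in WT MSCs. Divided by the length of the canonical transcript in GENCODE M39, levels were 330 ± 206 CPM per kilobase for Hmox1, 264 ± 197 for Gpx3, 252 ± 53.7 for Gpx1, 209 ± 91.3 for Prdx1 and 161 ± 26.0 for Gpx4 (SD, n = 7). Sod3 (97.4), Cat (71.0), Sod1 (26.2), Sod2 (19.1) and Nqo1 (4.58) followed. Neighbours among the first 5 were not in a fixed order. Hmox1 exceeded Gpx3 in 4 of 7 WT libraries, Gpx3 exceeded Gpx1 in 3, and Prdx1 exceeded Gpx4 in 3 by the same measure, whereas Cat, Sod1 and Sod2 each exceeded the next gene in 7 of 7. In KO libraries Gpx3 stood in place 5, below Hmox1 in 8 of 8 libraries. The order depends on the length used, since the canonical transcripts of Sod1 and Sod2 are 5315 and 5983 bases long with 462 and 666 coding bases. Divided by coding length alone, Gpx3, Prdx1 and Hmox1 led and Sod1 stood in place 6 rather than 8, with Nqo1 last by each measure.

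Counting by strand matters for some members, because their exons overlap a gene on the opposite strand in GENCODE M39. Of the exonic bases, 85.3% of Gpx1 overlap the long noncoding gene Gm57050, 85.0% of Gpx3 overlap Tnip1 and 48.8% of Sod1 overlap Scaf4. Whether the library kit keeps strand is not given in the sources used here, and if it does not, reads of such partners cannot be told apart. Tnip1 had a log2 fold change of −0.16 (edgeR adjusted p = 0.736) and Scaf4 one of 0.10 (edgeR adjusted p = 0.404). The deposited counts, made on GENCODE M31, hold no gene under the name Gm57050, so no value can be given for the partner of Gpx1. Processed copies took few reads, 9 to 88 counts per library for Gpx4-ps2, 0 to 2 for Gpx4-ps1 and 0 to 1 for Prdx1-ps. On GRCm39 Gpx1 lies on chromosome 9 from 108216102 to 108217546, Prdx1 on chromosome 4 from 116532123 to 116558398, and Nqo1 and Hmox1 both on chromosome 8, from 108113835 to 108129934 and from 75820241 to 75827217.

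Around these enzymes, 79 further genes of the same pathways were followed, and by edgeR 2 of them passed as lower in KO MSCs and none as higher. Over all genes 0.75% passed as lower and 0.546% as higher by the same test. At an unadjusted p under 0.05 there were 9 higher and 8 lower, beside 10.6% and 13% of all genes. DESeq2 called 4 higher and 3 lower, beside 5.45% and 6.41% of all genes. The median log2 fold change of the 79 genes was 0.07, beside −0.02 over all genes tested, with 47 above and 32 below 0.

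Gstm2, a glutathione transferase, fell in KO MSCs from a mean of 101 ± 30.6 CPM (SD, n = 7) in WT to 54.4 ± 11.8 CPM (SD, n = 8), which is −0.90 ± 0.18 (SE) on the log2 scale (edgeR adjusted p = 0.0397). All but 1 WT library had 88.0 to 148 CPM and the KO libraries 39.4 to 73.7 CPM, with WT male 3 (53.5 CPM) inside the KO range. Me1, the cytosolic malic enzyme that makes NADPH, fell from 124 ± 25.3 CPM to 78.6 ± 12.4 CPM, which is −0.65 ± 0.13 (SE) on the log2 scale (edgeR adjusted p = 0.0352). The 7 WT libraries had 101 to 176 CPM, and 7 of the 8 KO libraries lay below all of them, KO male 3 (102 CPM) being the exception. Neither call held in every fit. With the macrophage covariate the log2 fold change was −0.70 for Gstm2 (edgeR adjusted p = 0.222) and −0.50 for Me1 (edgeR adjusted p = 0.216), and leaving out 1 library at a time kept Gstm2 past the threshold in 4 of 15 fits and Me1 in 7 of 15.

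Among the other glutathione genes 1 of 26 passed by edgeR, which was Gstm2, with 11 above and 15 below 0 and a median of −0.09. At an unadjusted p under 0.05 there were 1 higher and 5 lower (10.6% and 13% of all genes), and DESeq2 called 0 higher and 2 lower (5.45% and 6.41% of all genes). Glrx2, a mitochondrial glutaredoxin, had the next smallest p and did not pass by edgeR (27.4 ± 2.98 CPM in WT, 21.5 ± 3.24 CPM in KO, log2 fold change −0.35, edgeR adjusted p = 0.0858). DESeq2 called Glrx2 lower (adjusted p = 0.0232), and voom did not (adjusted p = 0.0520). None of the 15 thioredoxin and peroxiredoxin genes passed by edgeR, 1 had an unadjusted p under 0.05 and DESeq2 called 1 (median 0.07), where the shares over all genes were 1.3%, 23.6% and 11.9%. Prdx5, a mitochondrial and peroxisomal peroxiredoxin, came nearest, with 231 to 359 CPM in WT and 303 to 595 CPM in KO libraries, of which 7 of 8 lay above every WT library (log2 fold change 0.53, edgeR adjusted p = 0.0692). It was the gene that DESeq2 called (adjusted p = 0.00911), while voom did not (adjusted p = 0.0533). Prdx4, the peroxiredoxin of the endoplasmic reticulum, had −0.26 (edgeR adjusted p = 0.327), which was −0.14 without WT female 1, −0.35 without WT male 3 and −0.11 with the macrophage covariate.

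The NRF2 regulators did not pass by edgeR either (0 of 11), with 2 at an unadjusted p under 0.05 and 1 called by DESeq2 (1.3%, 23.6% and 11.9% of all genes). Of the 11 values 10 lay above 0 (median 0.18), as did 8316 of all 17204 genes. Bach1, the repressor of Hmox1, had 38.1 to 69.8 CPM in WT and 51.3 to 146 CPM in KO libraries (log2 fold change 0.69 ± 0.20 SE, edgeR adjusted p = 0.0793). DESeq2 and voom called Bach1 higher (adjusted p = 0.0219 by DESeq2 and 0.0287 by voom). Nfe2l2 itself had 121 to 182 CPM in WT and 117 to 346 CPM in KO libraries (log2 fold change 0.44, edgeR adjusted p = 0.208). KO female 4 was the highest library for both genes, with 27100 CPM of macrophage markers. With the macrophage covariate the value of Bach1 was 0.36 (edgeR adjusted p = 0.455) and that of Nfe2l2 0.13 (edgeR adjusted p = 0.836). In the list of NRF2-linked genes of NADPH, heme and iron metabolism 1 of 21 passed by edgeR, Me1, with 12 above and 9 below 0 and a median of 0.10. At an unadjusted p under 0.05 this list had 5 higher and 3 lower (10.6% and 13% of all genes). DESeq2 called 2 higher and 1 lower (5.45% and 6.41% of all genes). Blvra, which turns the biliverdin made by HMOX1 into bilirubin, had 35.9 ± 7.15 CPM in WT and 55.0 ± 16.2 CPM in KO MSCs. It did not pass by edgeR (log2 fold change 0.57, edgeR adjusted p = 0.0558) but did by DESeq2 (adjusted p = 0.00458) and voom (adjusted p = 0.0282). Leaving out 1 library at a time put Blvra past the threshold in 3 of 15 edgeR fits, and with the macrophage covariate it had 0.35 (edgeR adjusted p = 0.294). Of the 6 genes of metal handling 0 passed by edgeR, by DESeq2 or at an unadjusted p under 0.05 (median 0.16). Mt1, a metallothionein, had 0.83 (edgeR adjusted p = 0.296) with 581 CPM in KO female 4 and at most 204 CPM elsewhere. Without KO female 4 the value of Mt1 was 0.41 (edgeR adjusted p = 0.460), and voom gave 0.36. Atox1, a copper chaperone, had 0.25 (edgeR adjusted p = 0.375).

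**Figure D5:**
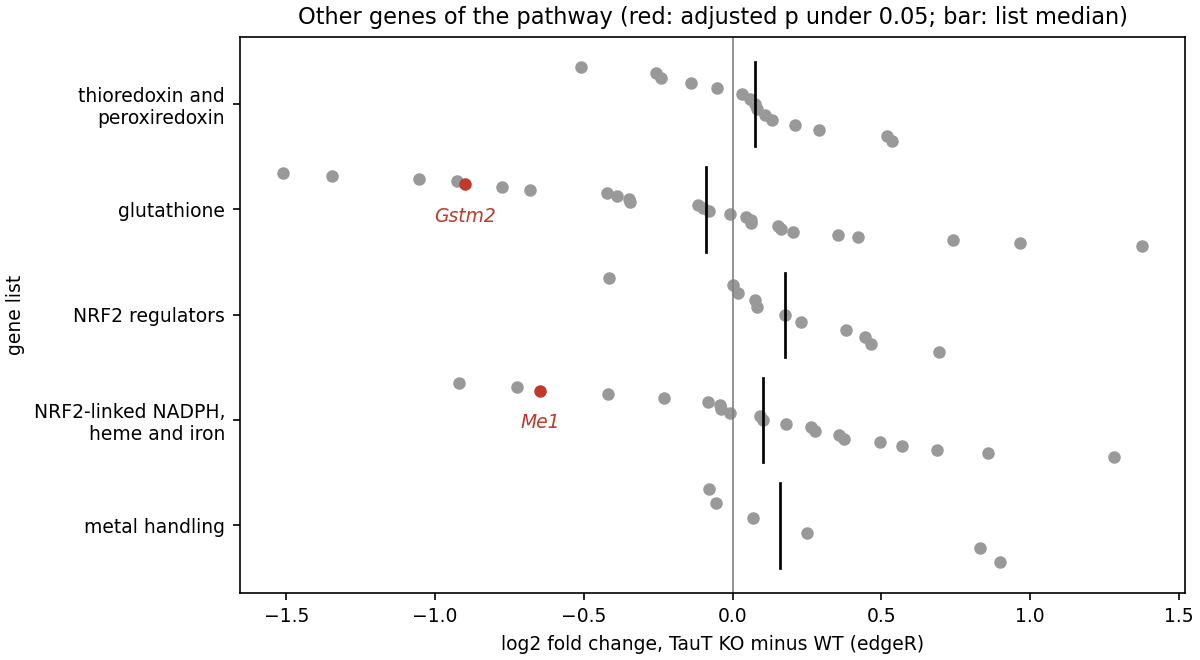
Log2 fold change of TauT KO against WT for the 79 other genes of the pathway, 1 point per gene, by list, with a bar at the median of each list. Gstm2 (−0.90) and Me1 (−0.65), in red, are the genes past the threshold by edgeR, and the medians lie between −0.09 and 0.18.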

How the data were processed

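Gene counts from cultured MSCs of mouse bone marrow were used, in 7 TauT+/+ (WT) and 8 TauT-/- (KO) libraries grouped by the genotype and sex in the labels. The authors primed 1 ng of RNA with oligo-dT (SMART-Seq mRNA LP), trimmed with fastp 0.23.1, aligned to GRCm39 and GENCODE M31 by STAR 2.7.9a, and ran featureCounts (Subread 2.0.1) with a strand setting, as their methods and the submitters' processing notes give. The authors deposited raw counts, whole numbers for each gene, and 0 columns were without a sample.

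The tests were edgeR 4.0.16 in R 4.3.3 (TMM, filterByExpr, quasi-likelihood test with terms for sex label and genotype, Benjamini-Hochberg adjustment over 17204 genes, threshold 0.05), DESeq2 1.42.0 and limma 3.58.1 (voom with sample quality weights). Values per library are CPM. The scripts were tested on simulated data. Alternatives were other normalizations and filters, no sex term, the replicate number as a block, a macrophage covariate and fits without named libraries. The members and lists were chosen with earlier results of these data known. The text names all 10 members, Slc6a6, and from each pathway list the genes past the threshold or, where fewer than 2 passed, the 2 with the smallest p. Exceptions are said to be chosen after their values were seen. Gene positions come from GENCODE M39, and figures were drawn in Python 3.11.15 with matplotlib 3.10.9. Depth was 12761107 to 101575071 counts per library, and the total per library sets how well Nqo1, the lowest member, is measured.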

Additional observations from a re-analysis of the deposited data

Results flagged for a closer look

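Of 60 groups of 4 libraries tested on log values for a value far from the others, 4 held one, where chance gives about 3 (1 in 20). Gaps are given as a part of the range on the log scale, beside levels in CPM, and untransformed CPM were not tested. Among WT male libraries, Sod3 was high in WT male 2 at 588 CPM, with the others at 224 to 262 CPM (gap 0.837 on the log scale). Among KO female libraries, Gpx4 was high in KO female 4 at 162 CPM, with the others at 121 to 126 CPM (gap 0.838 on the log scale). Glrx2 was low in WT male 3 at 21.8 CPM, with the others at 28.2 to 28.8 CPM (gap 0.930), and Atox1 was low in KO male 1 at 56.1 CPM, with the others at 86.4 to 93.2 CPM (gap 0.851).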

How the results depend on the processing

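The count of members past the threshold was 0 in 27 of 28 other fits, and DESeq2 gave 1. The 2 pathway genes and 223 genes of the table past it became 7 and 2091 with DESeq2 over its own set of genes, 7 and 1319 with voom, and 0 and 74 without a filter. They were 0 and 132 with the replicate block, 0 and 2 with the macrophage covariate, 0 and 2 or 0 and 7 with 1 of each near-identical pair (female-labelled or male-labelled kept), 0 and 0 without the 3 libraries at odds with their sex label, and 0 and 2 without KO female 4, KO female 1 and WT female 1. Without a sex term 471 genes passed. Fits that each lacked 1 library gave 0 to 5 pathway genes and 12 (without WT female 2) to 1255 genes (without WT male 3). The cause was not tested.

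Signs of small effects turned. Cat was −0.040 with voom, −0.19 with the replicate block, −0.17 with the macrophage covariate and −0.19 without KO female 4, KO female 1 and WT female 1. Sod2 was 0.047 without a sex term, 0.10 and 0.0039 with the female-labelled or male-labelled library of each pair kept, and 0.18 without the 3 libraries. Gpx4 was 0.013 with the male-labelled library kept, and Atox1 −0.040 with the macrophage covariate. Leaving out 1 library gave −0.52 to 0.077 for Sod2, −0.22 to 0.18 for Cat and −0.14 to 0.0029 for Gpx4. The other 7 members kept their sign in all 28 fits of both sex labels. For same-numbered WT and KO libraries under a sex label, the labels do not say whether the number marks a pairing. In their deviations from the group means, 6 of 7 such pairs correlated above 0.1 (0.025 to 0.60), and 4 of 7 best with their own number. With the replicate block Gstm2 was −0.79 and Me1 −0.58 (edgeR adjusted p = 0.0645 and 0.0591), and no member changed its call. KO female 4 has no WT library of its number, so it adds nothing to the genotype effect in that fit. The block fit thus differs from the main fit by the loss of that library as well as by the pairing. Scaling left 4 of 10 members above 0 by TMM, RLE and upper quartile alike.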

Other observations

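The subunits of ferritin, which stores the iron that heme oxygenase releases, had higher values in KO MSCs without passing the test, and these genes and the further fits given for them were chosen after the data were seen. Fth1 had 4568 ± 1919 CPM (SD, n = 7) in WT and 12036 ± 13110 CPM (SD, n = 8) in KO MSCs, which is 1.28 ± 0.50 (SE) on the log2 scale (edgeR adjusted p = 0.145), with 3 of 8 KO libraries above every WT library. KO female 4, the library with the highest macrophage and lowest stromal marker sums, had 43257 CPM, against a KO median of 8231 CPM. Without it the KO mean of Fth1 was 7576 CPM and the log2 fold change 0.74 (edgeR adjusted p = 0.241), and with the macrophage covariate the log2 fold change was 0.39 (edgeR adjusted p = 0.801). Ftl1 had 1933 ± 573 CPM in WT and 3631 ± 2224 CPM in KO MSCs, which is 0.86 ± 0.31 (SE) on the log2 scale (edgeR adjusted p = 0.125), with 5 of 8 above every WT library. Ftl1 was also highest in KO female 4 (8808 CPM), and its log2 fold change was 0.58 without that library (edgeR adjusted p = 0.164) and 0.32 with the macrophage covariate (edgeR adjusted p = 0.701). Slc40a1, the iron exporter ferroportin, had 38.6 ± 22.1 CPM in WT and 21.3 ± 10.6 CPM in KO MSCs (log2 fold change −0.92, edgeR adjusted p = 0.114). Every KO library lay within the WT range, whose low end was WT male 2 at 8.08 CPM, and all 8 lay below the WT median of 47.4 CPM. Without KO female 4 the log2 fold change of Slc40a1 was −1.05 (edgeR adjusted p = 0.0993), and with the macrophage covariate it was −1.38 (edgeR adjusted p = 0.102).

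All 7 tested adipocyte markers, of 9 listed, had a log2 fold change below 0 (median −1.33), and none passed by edgeR. The 7 tested mitochondrially encoded genes, of 13 listed, also lay below 0 (median −0.62), and none passed. Of all 17204 genes tested, 8888 lay below 0 and 0.75% passed as lower (edgeR).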
